A study of Homo sapiens with 6 samples.

Results

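Krüppel-like factors (KLFs) are DNA-binding proteins with a C-terminal array of C2H2 zinc fingers that recognises GC-rich and CACCC sequences, the same kind of element that SP factors bind. Outside the zinc fingers they differ: some members recruit the corepressor CtBP, others bind histone acetyltransferases and mostly activate, and others contact the Sin3 corepressor. In epithelial and mammary cells they are known for regulating proliferation, differentiation and the response to hormones and TGF-β. A total of 10 KLF genes was listed by symbol (KLF2, KLF3, KLF4, KLF5, KLF6, KLF7, KLF9, KLF10, KLF11 and KLF13), and all 10 were found, each in 1 row of the 24108 rows of the table. None of these rows was joined with another symbol. The table held 17 KLF rows in all, and the other 7 were used for comparison.

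RNA-seq was performed on MDA-MB-231, a metastatic and mesenchymal-like triple-negative breast cancer line. The control group (shCtr, 3 replicates) carried a lentiviral hairpin against luciferase, and the knockdown group (shZNF148, 3 replicates) carried a hairpin against ZNF148, itself a Krüppel-like zinc finger protein that binds GC-rich DNA. Both groups were transduced for 48 h and selected for 24 h in 0.5 µg/ml puromycin, so both contain a virus and the selection. With 1 hairpin per group, loss of ZNF148 cannot be told apart from any other property of that hairpin. The labels call the replicates repeats without naming separate cultures, so p-values measure the spread between these samples, which may be technical.

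The hairpin target is shown because it defines the comparison. Read 5′ to 3′ on the transcript, the supplementary list of the study gives it as follows.
shZNF148 target: cccttggtgaatgtaaatgat
It occurred once in the canonical GENCODE release 44 transcript of ZNF148, in exon 9 of 9 and inside the coding sequence, at chr3:125232398-125232418 of GRCh38 on the minus strand. In the canonical transcripts of the 10 KLF genes, the closest stretch differed from these 21 bases at 7 to 9 positions. A 7-base match to the seed of the guide strand, TAAATGA, lay in the 3′ UTR of 7 of the 10 (KLF3, KLF4, KLF5, KLF6, KLF9, KLF11 and KLF13), against 22.7% of 9435 tested genes. The median length of these 3′ UTRs was 2750 bases over the 10 KLF genes and 1357 bases over the tested genes. KLF3, KLF4 and KLF11 of this group were higher in shZNF148 and KLF5, KLF6, KLF9 and KLF13 lower, and the part of the seed in these values was not tested.

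ZNF148 itself was at 3.72, 4.36 and 4.30 FPKM in shCtr and at 0.914, 0.282 and 0.834 FPKM in shZNF148. FPKM is the number of fragments per length of the transcript and per sequencing depth, so levels of different genes can be set side by side. The mean of 0.677 ± 0.344 FPKM in shZNF148 (SD, n = 3) was 16.4% of that in shCtr. VIM, CD44, AXL and CAV1, which are high in this cell line, lay between 193 and 1840 FPKM, and CD44 and AXL were lower in shZNF148 (limma, adjusted p = 0.0185 and 0.0364). ESR1 and KRT5 were listed at 0 in every sample, CDH1 was between 0.131 and 0.491 FPKM, PGR and FOXA1 were at most 0.083 FPKM, and the endothelial and leukocyte markers (PECAM1, CDH5, VWF, PTPRC and CD3E) were at most 0.131 FPKM. GATA3 and EPCAM, expected low, were between 7.53 and 11.1 FPKM. The ERBB2 row, which is joined with MIR4728 and was also expected low, was at 20.1, 126 and 20.1 FPKM in shCtr and at 24.8, 125 and 21.9 FPKM in shZNF148. Replicate 2 of both groups stood far above the other 4 samples. No reference level of ERBB2 RNA for this line was available, so the other 4 were called neither low nor high. Results were also fitted without replicate 2 of both groups, and the part of the high ERBB2 values in the KLF values was otherwise not tested. The summed FPKM of the samples ranged from 469594 to 507312, and the number of reads is unknown.

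KLF6 and KLF10 were the most abundant family members. In shCtr the order of mean FPKM was KLF6 (62.3), KLF10 (40.9), KLF4 (8.76), KLF11 (8.57), KLF5 (8.23), KLF2 (7.04), KLF13 (6.19), KLF3 (5.55), KLF9 (2.30) and KLF7, whose mean was just below that of KLF9. The replicate ranges of KLF4, KLF11 and KLF5 overlapped from one neighbour to the next, and so did those of KLF9 and KLF7, so these orders were within the spread. In shZNF148 KLF6 (46.7) and KLF10 (42.4) overlapped as well, KLF4 (15.9) and KLF11 (12.0) stood next, and KLF9 (1.11) was the lowest. KLF6 and KLF10 together made up between 67.1% and 69.1% of the summed FPKM of the 10 genes in shCtr and between 58.4% and 62.6% in shZNF148. The sum itself was 147, 161 and 148 FPKM in shCtr and 140, 168 and 133 FPKM in shZNF148, and the groups overlapped.

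**Figure D1:**
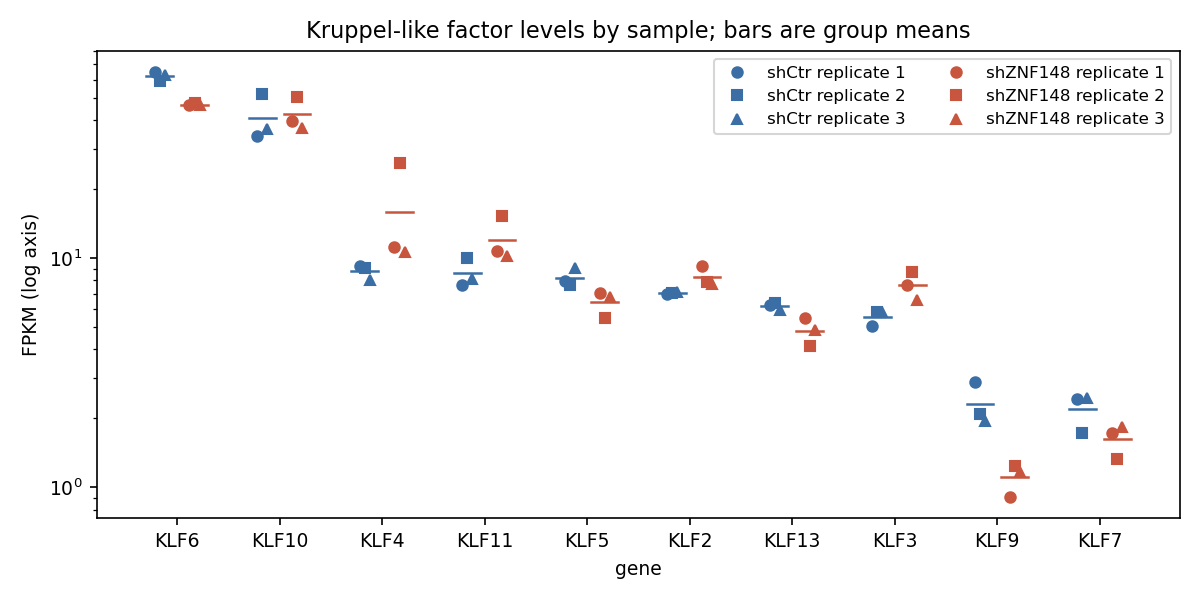
FPKM of the 10 KLF genes in each of the 6 samples on a log axis, ordered by the shCtr mean, with a marker shape for each replicate number and a bar at each group mean. KLF5, KLF6, KLF9 and KLF13 lie lower in all 3 shZNF148 replicates, and KLF2, KLF3, KLF4 and KLF11 lie higher. For KLF4, shZNF148 replicate 2 stands at 25.9 FPKM.

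The question of the comparison was which KLF genes differ once ZNF148 is depleted. KLF6 and KLF9 fell, and none of the 10 passed the test in the other direction. Each of the 11777 rows averaging 1 FPKM or more was tested on log2(FPKM + 1) with limma, and a row passed at an adjusted p under 0.05 (Benjamini-Hochberg over all rows). All 10 KLF genes were above that minimum. The 2 that passed stand against 13.6% of all tested rows, and 8.13% of all rows passed with a lower value in shZNF148. With a change of more than 1.5-fold as a further condition only KLF9 passed, where 5.49% of all rows did, 1.83% with a higher and 3.66% with a lower value. In 8 of the 10 genes the groups did not overlap, 4 of them higher and 4 lower in shZNF148, and the same held for 41.0% of all tested rows (20.0% higher and 21.0% lower). The median log2 fold change was -0.11 over the 10 genes and 0.0061 over all rows. In bulk RNA a change per cell and a change in the share of expressing cells cannot be told apart.

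**Figure D2:**
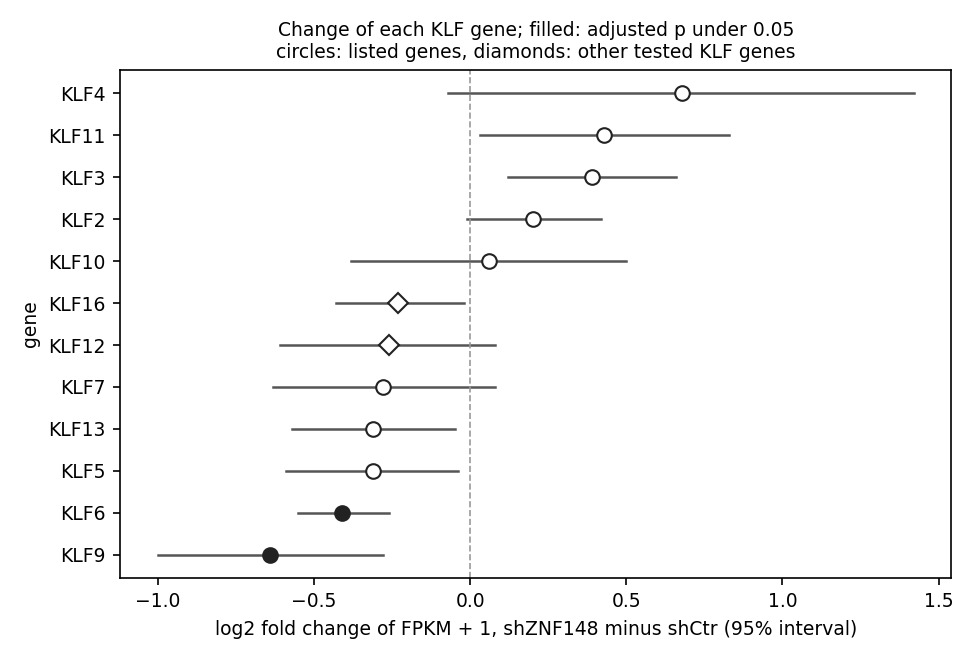
Log2 fold change of FPKM + 1 (shZNF148 minus shCtr) with its 95% interval from limma for the 10 listed KLF genes (circles) and for KLF12 and KLF16 (diamonds), filled where the adjusted p is under 0.05. Only KLF9 (-0.64) and KLF6 (-0.41) are filled, and the widest interval is that of KLF4.

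KLF6 is an activator that binds GC boxes and is known as a growth suppressor that can induce CDKN1A. It was at 64.8, 59.1 and 62.9 FPKM in shCtr and at 46.3, 47.6 and 46.3 FPKM in shZNF148. All 3 knockdown replicates lay below all 3 controls, and the spread within shZNF148 was narrow (62.3 ± 2.92 against 46.7 ± 0.754 FPKM, SD, n = 3 each). On the log2 scale KLF6 changed by -0.41 (standard error 0.06, limma adjusted p = 0.0162). Permuting the 6 samples exactly gave a two-sided p of 0.1, which is the lower bound for groups of this size. The adjusted p was 0.0852 without shCtr replicate 1, 0.0797 without shCtr replicate 3 and 0.0540 without shZNF148 replicate 1. Over all tested rows, 29, 22 and 339 passed in these fits, against 1600 with all samples. The size of the KLF6 change moved little, between -0.44 and -0.38, when any 1 sample was left out. Without replicate 2 of both groups KLF6 still passed (-0.46, limma adjusted p = 0.0263).

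KLF9 binds the Sin3 corepressor and is known as a target of glucocorticoid and thyroid hormone receptors. Its FPKM was 2.89, 2.08 and 1.94 in shCtr and 0.912, 1.24 and 1.17 in shZNF148. The groups did not overlap, and the control value of replicate 1 stood above the other two. The mean fell from 2.30 ± 0.514 to 1.11 ± 0.173 FPKM (SD, n = 3 each), which is 48.1% of the control. On the log2(FPKM + 1) scale, which understates the change of so low a gene, the fold change was -0.64 (standard error 0.15, limma adjusted p = 0.0407). It was -0.98 with a pseudocount of 0.1 FPKM and -0.26 with 5 FPKM, both with adjusted p-values under the threshold (0.0422 and 0.0424). Leaving out shZNF148 replicate 2 kept the call (adjusted p = 0.0477). It was lost without shCtr replicates 1, 2 or 3 (0.116, 0.0852 and 0.0925) and without shZNF148 replicates 1 or 3 (0.0931 and 0.0706). Of all tested rows, 29, 239, 22, 339 and 994 passed in these fits, in this order, against 1600 with all samples. The KLF9 call was also lost without replicate 2 of both groups (-0.73, limma adjusted p = 0.0755) and without the filter on low values (-0.64, adjusted p = 0.0505).

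Promoter sequence was read from the RefSeq promoters of GRCh38.p14, which hold 250 bases before and 50 bases after each transcription start. Of the 10 genes 8 had an entry, with 13 promoters in all, and KLF3 and KLF10 had none. Searched on both strands, the C-rich word CCCTCCC, of the kind that ZNF148 and its relatives bind, was found in 26.6% of 35116 promoters of this length. The GC box core GGGCGG was found in 45.0% of them, and the CACCC word in 59.9%. Matches of different words may overlap and were counted separately. CCCTCCC or its complement was found in 5 of the 13 KLF promoters, which belong to KLF4, KLF6 and KLF7. GGGCGG was found in 8 of the 13 and CACCC in 7. The promoter of KLF6 is 70.7% G or C and holds 1 match of CCCTCCC and 2 of GGGCGG. That of KLF9 is 32.7% G or C, a share below which only 2.36% of promoters lie, and holds none of the 3 words. Both genes that passed are shown, with KLF4 for comparison, and capitals mark CCCTCCC or its complement.
KLF6, chr10:3785281-3785309, minus strand: agtcacgtgggGGGAGGGggagtgggggg
KLF9, chr9:70414658-70414687, minus strand: gcatccaaaaaatatataacaaaacgaatt
KLF4, chr9:107489923-107489951, minus strand: gcccctccttcCCCTCCCccgcccccacg
KLF4, chr9:107489833-107489861, minus strand: gagagaagaaaGGGAGGGgcggggcatgg
The marked word begins 89 bases before the start of KLF6 and 171 and 81 bases before that of KLF4, and the KLF9 stretch is the last 30 bases before its start. A match is a word in the sequence and says nothing of binding.

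The other members that recruit acetyltransferases split in direction, and none passed. KLF4, a pluripotency factor that promotes epithelial differentiation, was at 9.20, 9.05 and 8.04 FPKM in shCtr and at 11.2, 25.9 and 10.6 FPKM in shZNF148. The knockdown values were all above the controls, but replicate 2 was far above the other two. The log2 fold change was 0.68 (standard error 0.31, 95% interval -0.07 to 1.42, limma adjusted p = 0.179). Without shZNF148 replicate 2 it was 0.29 with an adjusted p of 0.0783, so the size of the difference rested on that sample. Without replicate 2 of both groups it was 0.31.

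KLF2, which with KLF4 maintains endothelial quiescence, was at 6.98, 7.05 and 7.08 FPKM in shCtr and at 9.27, 7.84 and 7.70 FPKM in shZNF148. All knockdown values were higher, by 0.20 on the log2 scale (standard error 0.09, limma adjusted p = 0.167). KLF5, which promotes proliferation in basal breast cancer cells, was at 7.95, 7.65 and 9.08 FPKM in shCtr and at 7.07, 5.48 and 6.77 FPKM in shZNF148. These groups did not overlap either, with a log2 fold change of -0.31 (standard error 0.11, limma adjusted p = 0.109). KLF7, the closest relative of KLF6, was at 2.42, 1.72 and 2.45 FPKM in shCtr and at 1.73, 1.33 and 1.84 FPKM in shZNF148. Its groups overlapped, and its log2 fold change was -0.28 (95% interval -0.63 to 0.08, limma adjusted p = 0.236).

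KLF3, a repressor that recruits CtBP, was at 5.05, 5.80 and 5.81 FPKM in shCtr and at 7.67, 8.66 and 6.56 FPKM in shZNF148. It was higher in all 3 knockdown replicates, and its log2 fold change of 0.39 (standard error 0.11) missed the threshold with a limma adjusted p of 0.0656. KLF3 had the smallest adjusted p of the 8 genes that did not pass.

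KLF10 and KLF11 are early response genes of TGF-β and, like KLF13, bind Sin3. KLF10 was at 34.0, 52.1 and 36.5 FPKM in shCtr and at 39.8, 50.4 and 36.9 FPKM in shZNF148. Replicate 2 was the highest in both groups, the groups overlapped, and the log2 fold change of 0.06 had a 95% interval from -0.38 to 0.50 (limma adjusted p = 0.839). KLF11 was at 7.61, 9.98 and 8.13 FPKM in shCtr and at 10.7, 15.2 and 10.2 FPKM in shZNF148. Replicate 2 was again the highest in both groups, although the groups did not overlap (log2 fold change 0.43, standard error 0.17, limma adjusted p = 0.125). Without shZNF148 replicate 2 the log2 fold change of KLF11 was 0.26. Without replicate 2 of both groups it was 0.36 for KLF11 and 0.12 for KLF10 (limma adjusted p = 0.0668 and 0.312).

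KLF13, a relative of KLF9 known for inducing the chemokine CCL5 in T lymphocytes, was at 6.25, 6.40 and 5.91 FPKM in shCtr and at 5.49, 4.14 and 4.85 FPKM in shZNF148. It was lower in all 3 knockdown replicates, with a log2 fold change of -0.31 (standard error 0.11) and a limma adjusted p of 0.0998. In shZNF148, replicate 2 was the highest or the lowest of its group for 9 of the 10 KLF genes, as it was for 78.6% of all tested rows. ZNF148 was also lowest in this replicate (0.282 against 0.914 and 0.834 FPKM), and a link between these values was not tested.

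If each sample was scaled by 1 factor, the ratio of 2 genes within a sample does not depend on that factor. Whether this table was scaled so is not known. The ratio was compared for 6 pairs of related members with an exact two-sided permutation test of the log2 ratio, adjusted over the 6 pairs. The ratio of KLF6 to KLF7 was 26.8, 34.3 and 25.7 in shCtr and 26.8, 35.8 and 25.1 in shZNF148, so the mean log2 ratios differed by 0.01 where their SDs were 0.23 and 0.27 (exact p = 0.9). The ratio of KLF4 to KLF5 was 1.16, 1.18 and 0.886 in shCtr and 1.58, 4.72 and 1.57 in shZNF148. The ratio of KLF10 to KLF11 was 4.47, 5.22 and 4.49 in shCtr and 3.73, 3.32 and 3.63 in shZNF148.

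The ratio of KLF9 to KLF13 was 0.462, 0.325 and 0.328 in shCtr and 0.166, 0.300 and 0.241 in shZNF148. For KLF4 to KLF5, KLF10 to KLF11 and KLF9 to KLF13 the groups did not overlap, with exact permutation p = 0.1 and an adjusted p of 0.2, so none of the 6 could pass at this number of samples. The mean log2 ratio differed by 1.09, -0.41 and -0.68, respectively. KLF6 to KLF10 (-0.48, exact p = 0.3) and KLF2 to KLF4 (-0.50, exact p = 0.4) overlapped between the groups.

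**Figure D3:**
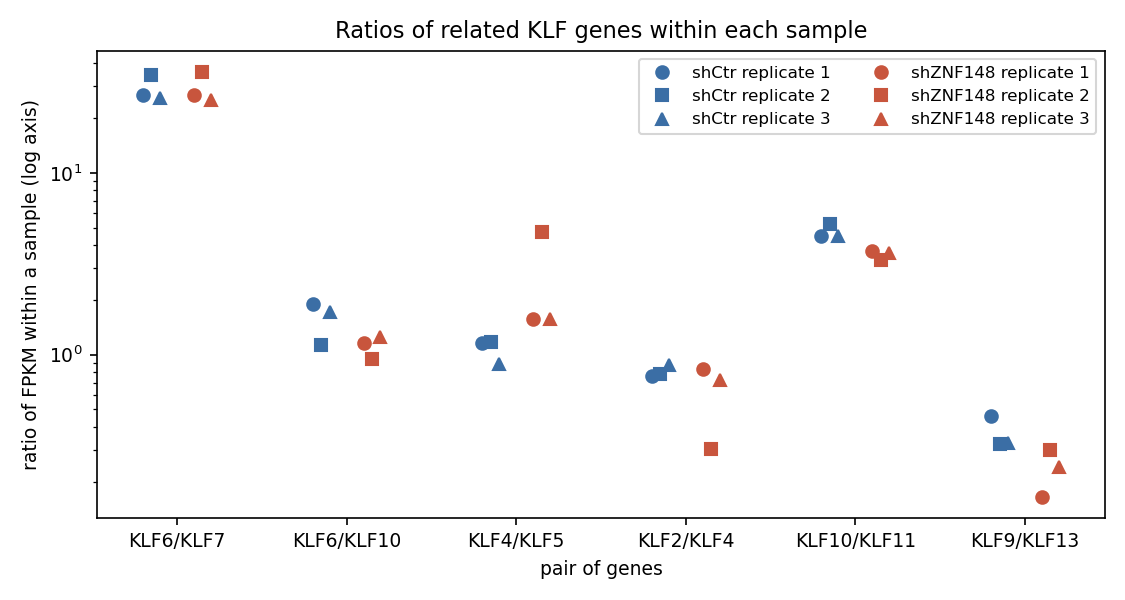
FPKM ratio of 6 pairs of KLF genes within each sample on a log axis, with a marker shape for each replicate number. KLF6/KLF7 lies at the same values in both groups, from 25.1 to 35.8, while the groups part for KLF4/KLF5, KLF10/KLF11 and KLF9/KLF13.

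Of the 7 other KLF genes, only KLF12 and KLF16 passed the filter on low values, and neither passed the test. KLF16, a Sin3-binding relative of KLF9, was at 18.3, 19.4 and 16.6 FPKM in shCtr and at 14.8, 16.6 and 14.5 FPKM in shZNF148 (log2 fold change -0.23, limma adjusted p = 0.123). KLF12, a CtBP-binding relative of KLF3, had a log2 fold change of -0.26 (adjusted p = 0.244 from limma). In both, the groups overlapped by a single pair of nearly equal values. KLF15, known as a glucocorticoid-induced regulator of metabolism, was below the filter at 0.628, 0.709 and 0.735 FPKM in shCtr and 0.214, 0.216 and 0.360 FPKM in shZNF148. Its groups did not overlap, and without the filter its log2 fold change was -0.42 with a limma adjusted p of 0.0273. That value lies at a level under 1 FPKM where the number of reads behind a value is unknown. KLF1, KLF8, KLF14 and KLF17 were below 0.9 FPKM in every sample, and their groups overlapped.

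**Figure D4:**
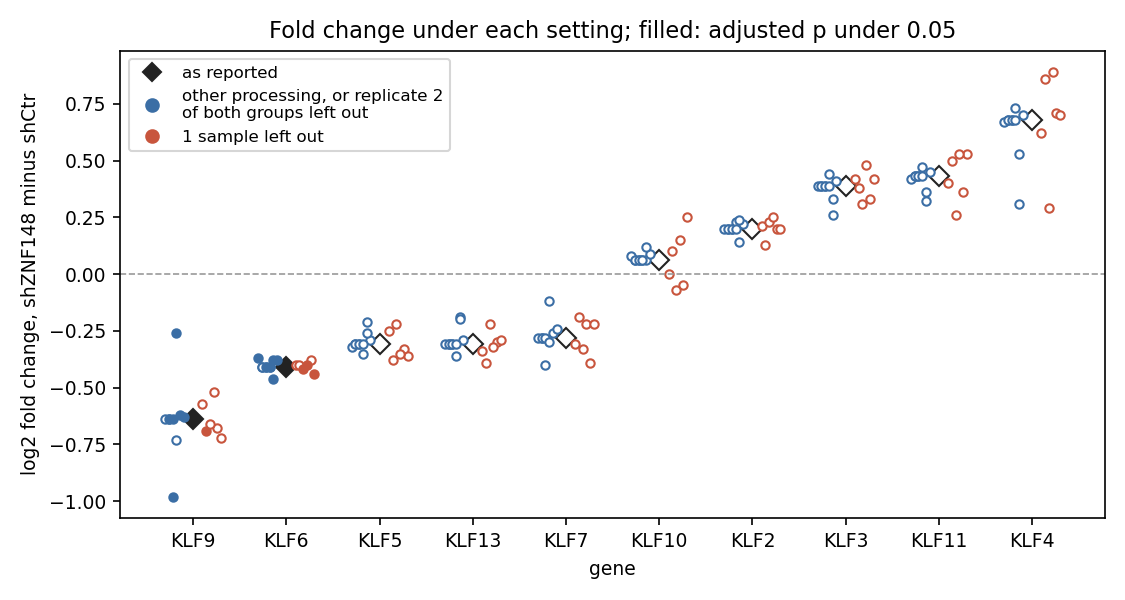
Log2 fold change (shZNF148 minus shCtr) of each listed KLF gene as reported (diamonds), under other processing or without replicate 2 of both groups (blue) and with 1 sample left out (orange), filled where the adjusted p is under 0.05. KLF10 is the gene whose value crosses 0, from -0.07 to 0.25, and KLF9 moves most with the pseudocount.

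The tested row most like KLF6 in its pattern over the 6 samples, by Pearson's r of log2(FPKM + 1), was KIAA1107 (r = 0.9983). It was followed by RBL2, a pocket protein of the retinoblastoma family (0.997), and PIK3C3, the class III phosphatidylinositol 3-kinase (0.9969). RBL2 was at 22.1, 20.9 and 21.9 FPKM in shCtr and at 16.4, 17.2 and 16.6 FPKM in shZNF148. Over so few samples in 2 groups, the likeness mostly describes the shared difference between the groups.

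Lists of genes around the family were read from the same fit. With the high markers CD44 and AXL, 13 genes of these lists passed. With any 1 sample left out, their log2 fold changes were 78.6% to 118% of those over all samples. Their direction could not turn, because the groups did not overlap in any of the 13. Without shCtr replicates 1, 2 and 3, 0, 2 (CCND1 and DUSP1) and 0 of the 13 passed, where 29, 239 and 22 of all tested rows did. Without shZNF148 replicates 1, 2 and 3 the count was 4, 13 and 8, where 339, 1720 and 994 of all tested rows passed. With all samples, the counts of the lists stand against the 13.6% of all tested rows that passed. None of the 5 tested SP factors passed, and SP1 (-0.16) and SP2 (0.12) had the largest log2 fold changes. Of 13 corepressors and coactivators, SAP30, a subunit of the Sin3 complex, rose from 23.7, 24.9 and 25.4 FPKM in shCtr to 32.6, 34.0 and 34.3 FPKM in shZNF148 (log2 fold change 0.43, limma adjusted p = 0.0148). The other 12 did not pass. Of 5 genes for KLF protein turnover none passed, with FBXW7 (0.10) and SMURF2 (0.10) the furthest from 0. The groups did not overlap in 1 of the 5 SP factors (lower) and 1 of the 5 turnover genes (higher). They did not overlap in 7 of the 13 corepressors and coactivators, 6 higher and 1 lower, against 41.0% of all tested rows.

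In the ERK5 and MEF2 pathway, which induces KLF2 and KLF4, 2 of 6 tested genes passed, in opposite directions, against 13.6% of all tested rows. The kinase MAP3K3 rose by 0.42 (limma adjusted p = 0.0392), and the transcription factor MEF2D had a log2 fold change of -0.46 (adjusted p = 0.0233). Of 7 genes of TGF-β signalling, upstream of KLF10 and KLF11, the receptor TGFBR2 rose by 0.43 (limma adjusted p = 0.0275) and the signal transducer SMAD3 had a log2 fold change of -0.35 (adjusted p = 0.0280). The feedback inhibitor SMAD7 was at 6.06, 4.44 and 5.46 FPKM in shCtr and at 7.17, 9.92 and 6.92 FPKM in shZNF148 (adjusted p = 0.0786). The groups did not overlap in 5 of the 6 ERK5 and MEF2 genes, 2 higher and 3 lower in shZNF148. The same held for 5 of the 7 TGF-β genes, 3 higher and 2 lower, against 41.0% of all tested rows.

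Of 9 tested glucocorticoid and clock genes, the group to which KLF9 is tied, 2 passed, both lower. Of all tested rows 13.6% passed in either direction and 8.13% with a lower value. The phosphatase DUSP1 fell from 8.87, 6.45 and 9.25 FPKM in shCtr to 4.03, 4.19 and 4.20 FPKM in shZNF148 (log2 fold change -0.82, limma adjusted p = 0.0195). The clock repressor NR1D1 had a log2 fold change of -0.38 (limma adjusted p = 0.0383). The glucocorticoid receptor NR3C1 (-0.14, adjusted p = 0.266) and FKBP5, SGK1 and TSC22D3 did not pass, so 7 of the 9 did not. Among these 7, PER1 changed most (-0.48, limma adjusted p = 0.0541). In 5 of the 9 the groups did not overlap, 4 lower and 1 higher in shZNF148, against 41.0% of all tested rows.

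Of 19 genes named in the literature as KLF targets, 14 were tested and 4 passed. CCND1, which encodes cyclin D1, rose from 104, 126 and 113 FPKM in shCtr to 165, 184 and 167 FPKM in shZNF148 (log2 fold change 0.58, limma adjusted p = 0.0169). EGFR (-0.61, adjusted p = 0.0200), the growth factor PDGFA (-0.54, 0.0198) and the urokinase gene PLAU (-0.30, 0.0313) were lower. CDKN1A, a known target of KLF4 and KLF6, was at 98.2, 92.5 and 96.7 FPKM in shCtr and at 79.0, 117 and 80.0 FPKM in shZNF148, with overlapping groups. EDN1 had the largest log2 fold change of the 14 genes and did not pass (-0.66, limma adjusted p = 0.0609). The median log2 fold change of the 14 genes was -0.19, against 0.0061 over all rows, and 4 of 14 stands against the 13.6% of all tested rows. In 9 of the 14 the groups did not overlap, 7 lower and 2 higher in shZNF148, against 41.0% of all tested rows.

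**Figure D5:**
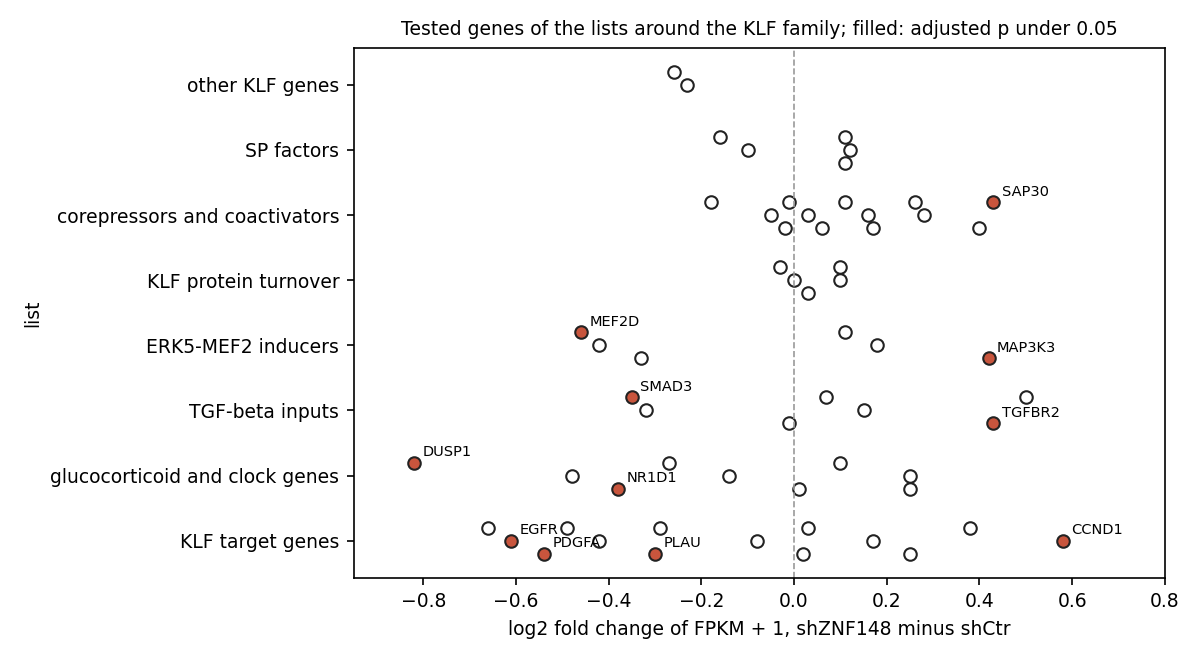
Log2 fold change of FPKM + 1 (shZNF148 minus shCtr) of each tested gene in 8 lists around the KLF family, filled and named where the adjusted p is under 0.05. Genes that passed lie on both sides of 0 in the ERK5-MEF2, TGF-beta and target lists, and DUSP1 (-0.82) lies furthest out.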

How the data were processed

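RNA-seq was analysed in 3 shCtr and 3 shZNF148 samples of MDA-MB-231 cells. The authors deposited 1 table of normalised FPKM values, with 0 further sample columns. The submitters' processing notes name TopHat2 2.0.14, Cufflinks 2.2.1 and Cuffnorm 2.2.1 with hg18 and hg19, whereas the methods of the study name Salmon, GRCh38 and DESeq2. Which of these made the table, and its scaling, is not given in the sources used here, so a count test was not run. Read numbers are unknown, and the steps between low values gave relative depths from 0.806 to 1.13 of shCtr replicate 1.

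Rows averaging 1 FPKM or more were fitted as log2(FPKM + 1) with limma 3.58.1 in R 4.3.3 (condition as the only term, mean-variance trend, Benjamini-Hochberg adjustment over 11777 rows). Of several rows of a gene the one with the highest mean was used. Single values were compared with exact permutation tests in scipy 1.17.1. Samples were not paired. Alternatives covered the filter, pseudocount, scaling, replicate block, variance model, summed rows and each sample left out, and, chosen after seeing the data, replicate 2 of both groups left out. The fit was tested on simulated data. The members, lists and pairs were chosen with earlier results of these data known. Named genes were the KLF genes, list genes that passed (otherwise the 2 with the largest change) and the 3 rows most like KLF6, and further list genes were named after their values were seen.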

Additional observations from a re-analysis of the deposited data

How the results depend on the processing

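Of 158 values of the 10 KLF genes under the alternatives, 143 kept their direction and their side of the threshold. KLF6 (-0.41, adjusted p = 0.0575) and KLF9 (-0.64, adjusted p = 0.0961) did not pass with the replicate number as a block, and neither did any other of the 10, so the count of passing KLF genes was 0 under the block. KLF9 also missed the threshold without the filter on low values (-0.64, adjusted p = 0.0505) and was not tested at a minimum of 5 FPKM, which leaves 1 passing gene in each. Without replicate 2 of both groups, an alternative chosen after seeing the data, 1 gene passed as well (KLF9 -0.73, adjusted p = 0.0755). After subtracting group means, samples that share a replicate number correlated at 0.00104, -0.0881 and 0.0304 over the tested rows, and only shZNF148 replicate 3 correlated best with its own number, so the numbers were not taken as pairs, although the ERBB2 row was high in replicate 2 of both groups. With 1 sample left out the count was 0 to 2, with log2 fold changes from -0.44 to -0.38 for KLF6, from -0.72 to -0.52 for KLF9 and from -0.07 to 0.25 for KLF10, whose sign turned without shCtr replicate 1 (-0.05), shCtr replicate 3 (0) or shZNF148 replicate 2 (-0.07). Scaling by the upper quartile or quantile normalization changed no call of the 10 genes.

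Over all rows, 647 were called at the adjusted p and 1.5-fold together and 1600 at the adjusted p alone. The first count was 280 with a pseudocount of 5 FPKM, 315 with the block and 22 to 566 with 1 sample left out, lowest without shCtr replicate 3 (22) or 1 (29). The second was 401 with the block, 1065 without replicate 2 of both groups and 22 to 1720 with 1 sample left out. Of the list and marker genes that passed, only SAP30, DUSP1, CCND1 and CD44 also passed with the block. Without the filter on low values 9 of the 13 passed, and after quantile normalization 10, where 1093 and 1585 of all rows did. The cause of these differences was not tested. Depth is unknown, which limits KLF7 and KLF9 most, with single values from 0.912 to 2.89 FPKM.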
